A study of Arabidopsis thaliana with 4 samples.

Results

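Heavy-metal-associated (HMA) domain proteins are small plant proteins built around a fold that also occurs in copper chaperones and metal-pumping ATPases. A cysteine pair in the CXXC motif of that fold binds metal ions such as copper or zinc. Many members also carry a lipid (isoprenyl) anchor at the carboxyl end and are then called heavy metal associated isoprenylated plant proteins (HIPPs), and family members have been tied to metal balance, responses to cold and drought, phloem transport and interactions with pathogens. The list used here holds 41 Arabidopsis thaliana loci of this family, taken as a fixed list of locus codes. A locus was measured where the array annotation pairs a probe set with it and with no other gene. That held for 23 loci with 24 probe sets. Of the 22810 probe sets on the array, 13436 were matched to a single locus. The brightest probe set stood for the member locus with a pair of them. The family was chosen by the DEX against mock changes of its members on these same arrays, which were already known, so the values of the members that changed are a description and no independent evidence.

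The seedlings carried 35S::Dof3.2-GR in both groups. This transgene joins the zinc finger transcription factor Dof3.2 to the hormone-binding part of the glucocorticoid receptor under a promoter active in most tissues, and dexamethasone (DEX), a synthetic glucocorticoid, lets such a fusion enter the nucleus. DEX seedlings received 10 µM DEX for 3 h, and mock seedlings were labelled mock with the same transgene, after growth at 22 °C for 4 days on solid medium (1% sucrose, kanamycin at 50 µg/ml) and 4 days in liquid medium under shaking. There were 2 arrays for each group, and whether the replicates were separate cultures is not given in the labels. The p-values therefore rest on the spread between these arrays, shared in part across probe sets, and that spread may be technical. The values are MAS5 signals, a linear brightness scale on which every array was scaled as a whole. Plants without the transgene were not analysed here, and whether a value reflects the hormone alone or the fusion cannot be told apart.

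The 4 arrays had median signals of 190.6 to 193.3. Log2 signals correlated across probe sets at r = 0.992 between the DEX arrays, at 0.985 between the mock arrays and at 0.982 to 0.986 across groups. The summed signal of 4 measured green tissue genes of 6 listed was 44809 to 52051 on the DEX arrays and 50193 to 52826 on the mock arrays. Among them, PORB had 3700 and 4099 in DEX and 4303 and 4830 in mock seedlings (log2 change -0.23 ± 0.11, SE), both DEX arrays being lower. PRK, RCA and LHCB4.2 had overlapping groups, with log2 changes of 0.09, -0.16 and -0.08. For 3 of 4 root genes the sum was 14157 to 15089 on the DEX arrays and 14060 to 14741 on the mock arrays, nearly all of it from PYK10, an abundant root β-glucosidase gene. The other root genes encode root hair expansins: EXPA18 had 368.4 and 329.9 in DEX and 426.6 and 517.8 in mock seedlings (log2 change -0.43 ± 0.15, SE), both DEX arrays being lower, and EXPA7 had 140.2 and 175.2 in DEX and 158.1 and 211.0 in mock seedlings (-0.22 ± 0.20, SE), with overlapping groups. Their part in the members' values was not tested. The phloem list had 1 of 3 genes measured, SWEET11, a sugar exporter gene, at 4604 to 4779 in DEX and 5158 to 5377 in mock seedlings. None of the 8 markers was listed at 0, and none passed the test used below (lowest adjusted p = 0.372, EXPA18, 1 of 8 with an unadjusted p under 0.05). In whole seedlings, fewer cells of a type and less RNA per cell cannot be told apart.

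Probe sets with a mean log2 signal under the 40th percentile, a signal of 110.6, were not tested. Of the 23 measured members, 17 lay above that level. In a limma fit over all 13648 tested probe sets, with Benjamini-Hochberg adjustment and a threshold of 0.05, 2 of the 17 rose, AT5G60800 and AT5G23760, and 1 fell, AT3G07600. The other 14 did not pass. Of all tested probe sets, 0.293% rose and 0.293% fell, 0.586% in all. Since changed members led to the choice of the family, nothing is read from the larger share among the members.

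AT5G60800 had the largest change of the tested members. Its signal was 452.5 and 551.5 in DEX seedlings and 170.7 and 178.9 in mock seedlings, a mean of 502.0 ± 70.0 against 174.8 ± 5.8 (SD, n = 2 each). Both DEX arrays lay far above both mock arrays. The lower DEX value was 2.53 times the higher mock value, while the DEX replicates differed 1.22-fold and the mock replicates 1.05-fold. The fitted rise was 2.86-fold, the ratio of geometric means, with a 95% interval of 2.26-fold to 3.62-fold (log2 change 1.52 ± 0.15, SE). Among the 40 probe sets that rose it stood at rank 9 by size. It was also the only tested member with at least a 2-fold difference in all 4 DEX against mock pairs of arrays, a property of 0.0953% of tested probe sets in the upward direction. No tested member had it in the downward direction, against 0.0586% of tested probe sets.

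AT5G23760 rose by less, with very little spread between its DEX arrays. Signals were 664.6 and 653.9 in DEX seedlings and 389.6 and 353.4 in mock seedlings, which average to 659.2 ± 7.61 against 371.5 ± 25.6 (SD, n = 2 each). The groups did not overlap, and the lower DEX value was 1.68 times the higher mock value. The rise was 1.78-fold with a 95% interval of 1.46-fold to 2.16-fold (log2 change 0.83 ± 0.13, SE), rank 33 of the 40 by size. This call was lost without the filter on dim probe sets (adjusted p = 0.0632) and without DEX replicate 1 or DEX replicate 2 (adjusted p = 0.169 and 0.184), where the change itself was 0.82 and 0.84 on the log2 scale.

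AT3G07600 was the single tested member that fell. It gave 132.7 and 114.0 in DEX seedlings and 258.4 and 285.5 in mock seedlings, or 123.3 ± 13.3 against 272.0 ± 19.2 (SD, n = 2 each). Both DEX signals lay below both mock signals and only just above the filter level of 110.6, where MAS5 values are noisy and no detection call was used here. The fall was 2.21-fold with a 95% interval of 1.70-fold to 2.87-fold (log2 change -1.14 ± 0.17, SE), rank 14 of the 40 falls. Each mock array was at least 1.95 times as bright as either DEX array. The call was lost without the filter (adjusted p = 0.0845), without DEX replicate 1 (0.0521) and without DEX replicate 2 (0.141), with log2 changes of -1.25 and -1.03 without these arrays. The adjusted p in the full limma fit was 0.00314 for AT5G60800, 0.0220 for AT5G23760 and 0.0203 for AT3G07600. AT5G60800 and AT3G07600 led to the choice of the family, so these values are no independent evidence.

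**Figure D1:**
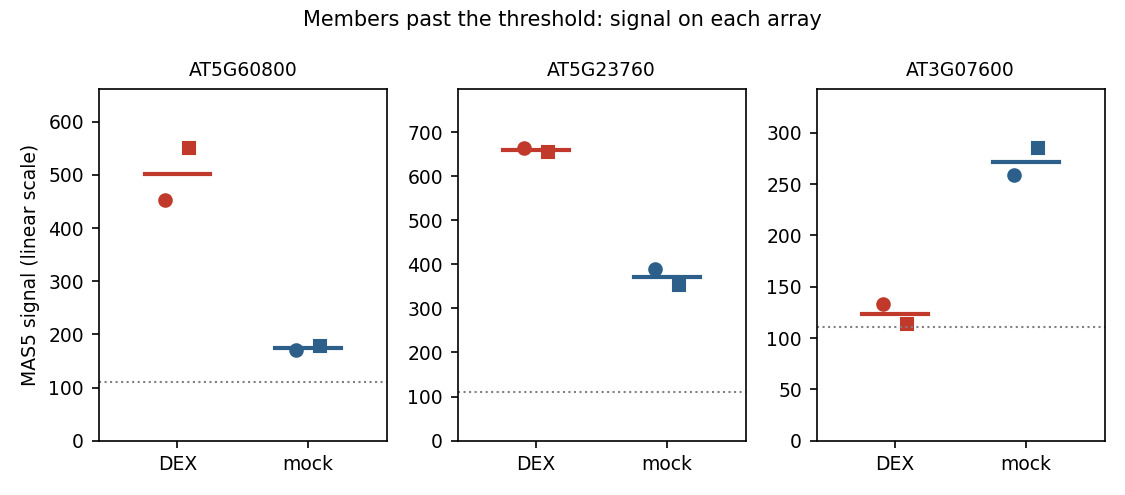
MAS5 signal (vertical axis, linear scale from 0) of the 3 members past the threshold on each DEX array (left in each panel) and each mock array (right); circles are replicate 1, squares replicate 2, bars the means of 2 arrays, and the dotted line the filter level of 110.6. In all 3 panels the DEX and mock arrays are separate, with AT3G07600 close to the filter level on the DEX arrays.

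The plot of all tested probe sets shows where the members lie. The 2 members that rose and the 1 that fell stand outside the main cloud, and most others lie within it. The median log2 change of the 17 tested members was -0.03, against -0.01 over all tested probe sets, and 8 of the 17 had a change above 0, against 48.2% of all tested probe sets. Changes of the tested members thus lay on both sides of 0. The median absolute log2 change was 0.26 over the 17 members and 0.11 over all tested probe sets. The members' value includes the 3 that passed, among them those that led to the choice. Over all 23 measured members, dim ones included, the median was -0.03 as well, against -0.02 over all probe sets other than controls.

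**Figure D2:**
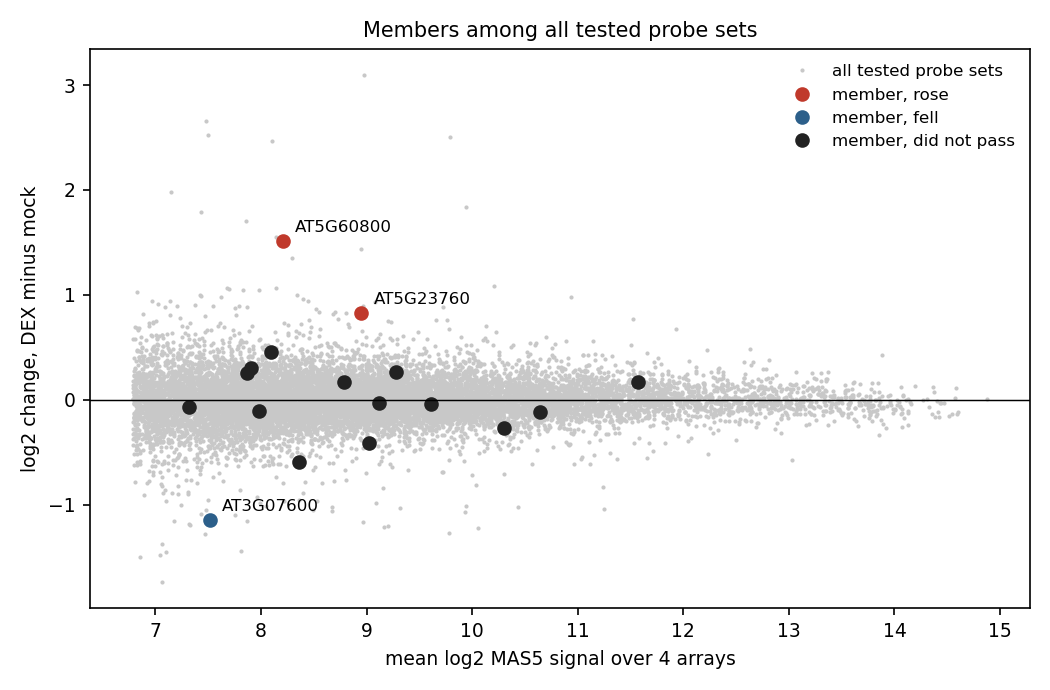
Log2 change of DEX against mock (vertical axis, DEX minus mock) against mean log2 MAS5 signal over the 4 arrays (horizontal axis) for 13648 tested probe sets, with the 17 tested members as large points. AT5G60800 and AT5G23760 lie above the cloud at 1.52 and 0.83, AT3G07600 below it at -1.14.

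Nearest to the threshold among members that did not pass was AT3G05920. It had signals of 256.0 and 277.9 in DEX seedlings and 382.5 and 423.9 in mock seedlings. Both DEX arrays were lower than both mock arrays, by 1.38-fold for the closest pair. Among members that passed, the highest adjusted p in limma was 0.0220, for AT5G23760. The log2 change of AT3G05920 was -0.59 ± 0.14 (SE), with an adjusted p of 0.144. Without mock replicate 1 it stood at -0.67 (adjusted p = 0.0298), and without each of the other arrays it did not pass.

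A further 3 members had an unadjusted p under 0.05 without passing after adjustment. AT3G48970 measured 330.6 and 311.4 in DEX seedlings and 275.8 and 198.6 in mock seedlings. Its groups did not overlap, but its mock arrays differed 1.39-fold, the widest mock spread among the 17, and the log2 change was 0.46 ± 0.18 (SE; adjusted p = 0.461). Without mock replicate 1 that change was 0.69, and without mock replicate 2 it was 0.22. These values follow from the mock spread and do not single out either array. AT5G03380 had 1127 and 1172 in DEX seedlings and 1476 and 1293 in mock seedlings, a log2 change of -0.26 ± 0.11 (SE; adjusted p = 0.517) that stood at -0.17 without mock replicate 1. With AT5G52750, described below, 7 of the 17 tested members had an unadjusted p under 0.05, against 9.25% of all tested probe sets. This count includes the 3 that passed, among them those behind the choice of the family.

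**Figure D3:**
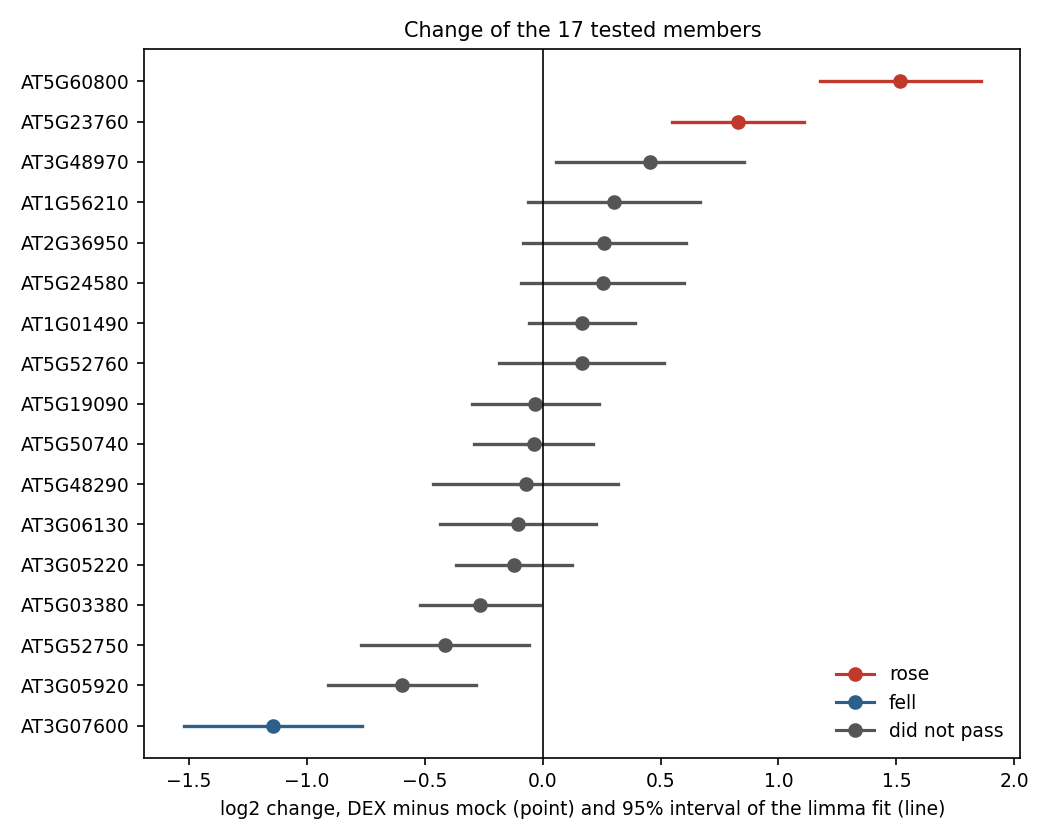
Log2 change of DEX against mock (horizontal axis, DEX minus mock) of the 17 tested members, 1 per row, ordered by size; points are limma estimates, lines 95% intervals, n = 2 arrays per group. The changes run from 1.52 for AT5G60800 to -1.14 for AT3G07600, with 8 above and 9 below 0.

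AT5G52740, AT5G52750 and AT5G52760 lie side by side on chromosome 5 in the RefSeq gene table, and none of them passed the threshold. AT5G52750 had 409.8 and 495.9 in DEX seedlings and 528.6 and 682.7 in mock seedlings, all DEX values being lower, for a log2 change of -0.41 ± 0.16 (SE; adjusted p = 0.449). That of AT5G52750 was -0.60 without mock replicate 1 (adjusted p = 0.0319), -0.23 without mock replicate 2 and -0.28 without DEX replicate 1. AT5G52760 had 455.0 and 482.2 in DEX seedlings and 361.8 and 482.3 in mock seedlings, where the groups overlapped, with a log2 change of 0.17 ± 0.16 (SE; adjusted p = 0.818) that stood at -0.04 without mock replicate 1 and 0.37 without mock replicate 2. AT5G52740 was too dim to test, at 50.6 and 21.1 in DEX and 14.7 and 8.97 in mock seedlings. The difference between the neighbours' changes was not tested.

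The naming rule also took the 5 members with the highest mean signal, AT1G01490, AT3G05220, AT5G03380, AT5G50740 and AT2G36950, none of which passed. AT1G01490 had 3324 and 3133 in DEX seedlings and 2910 and 2841 in mock seedlings, a log2 change of 0.17 ± 0.10 (SE; adjusted p = 0.682) whose 95% interval ran from -0.06 to 0.39. The groups were separate, with a closest pair 1.08-fold apart. AT3G05220 had 1467 and 1613 in DEX seedlings and 1751 and 1597 in mock seedlings, with overlapping groups and a log2 change of -0.12 ± 0.11 (SE; adjusted p = 0.810). AT2G36950 had 590.5 and 789.2 in DEX seedlings and 533.9 and 606.9 in mock seedlings. Its groups overlapped and its DEX arrays differed 1.34-fold, the widest DEX spread of the 17, so its log2 change of 0.26 ± 0.16 (SE; adjusted p = 0.674) was not distinguishable from the spread. Without DEX replicate 1 that change was 0.47, and without DEX replicate 2 it was 0.05.

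AT5G50740 was the locus with a pair of probe sets, which gives a check of the measurement within a gene. The brighter probe set had 749.0 and 790.2 in DEX seedlings and 786.2 and 792.8 in mock seedlings, a log2 change of -0.04 ± 0.11 (SE; 95% interval -0.29 to 0.21). The second had 488.1 and 661.8 in DEX seedlings and 439.3 and 689.6 in mock seedlings, a change of 0.05 ± 0.21 (SE; 95% interval -0.43 to 0.52). Neither passed, and their estimates differed by less than either standard error. The replicates of the second probe set differed 1.36-fold in DEX and 1.57-fold in mock seedlings, those of the first 1.06-fold and 1.01-fold.

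The remaining 5 tested members are named for completeness, outside the naming rule, as was AT5G52760. AT1G56210 had 282.6 and 249.6 in DEX seedlings and 237.0 and 195.6 in mock seedlings, and AT5G24580 had 242.4 and 269.0 in DEX seedlings and 226.4 and 202.4 in mock seedlings. In both genes the DEX arrays lay above the mock arrays by little, 1.05-fold and 1.07-fold for the closest pair, with log2 changes of 0.30 ± 0.16 and 0.25 ± 0.15 (SE; adjusted p = 0.629 and 0.682). The change of AT1G56210 was 0.44 without mock replicate 1 and 0.16 without mock replicate 2. AT5G19090, AT5G48290 and AT3G06130 had overlapping groups and log2 changes of -0.03 ± 0.12, -0.07 ± 0.18 and -0.10 ± 0.15 (SE; adjusted p = 0.975, 0.949 and 0.890). In all, DEX and mock arrays did not overlap in 10 of the 17 tested members, 6 with DEX above mock and 4 below. Over all tested probe sets these shares were 39.3%, 18.2% and 21.1%. The members' count includes those that passed, among them the members behind the choice of the family, so nothing is read from it.

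**Figure D4:**
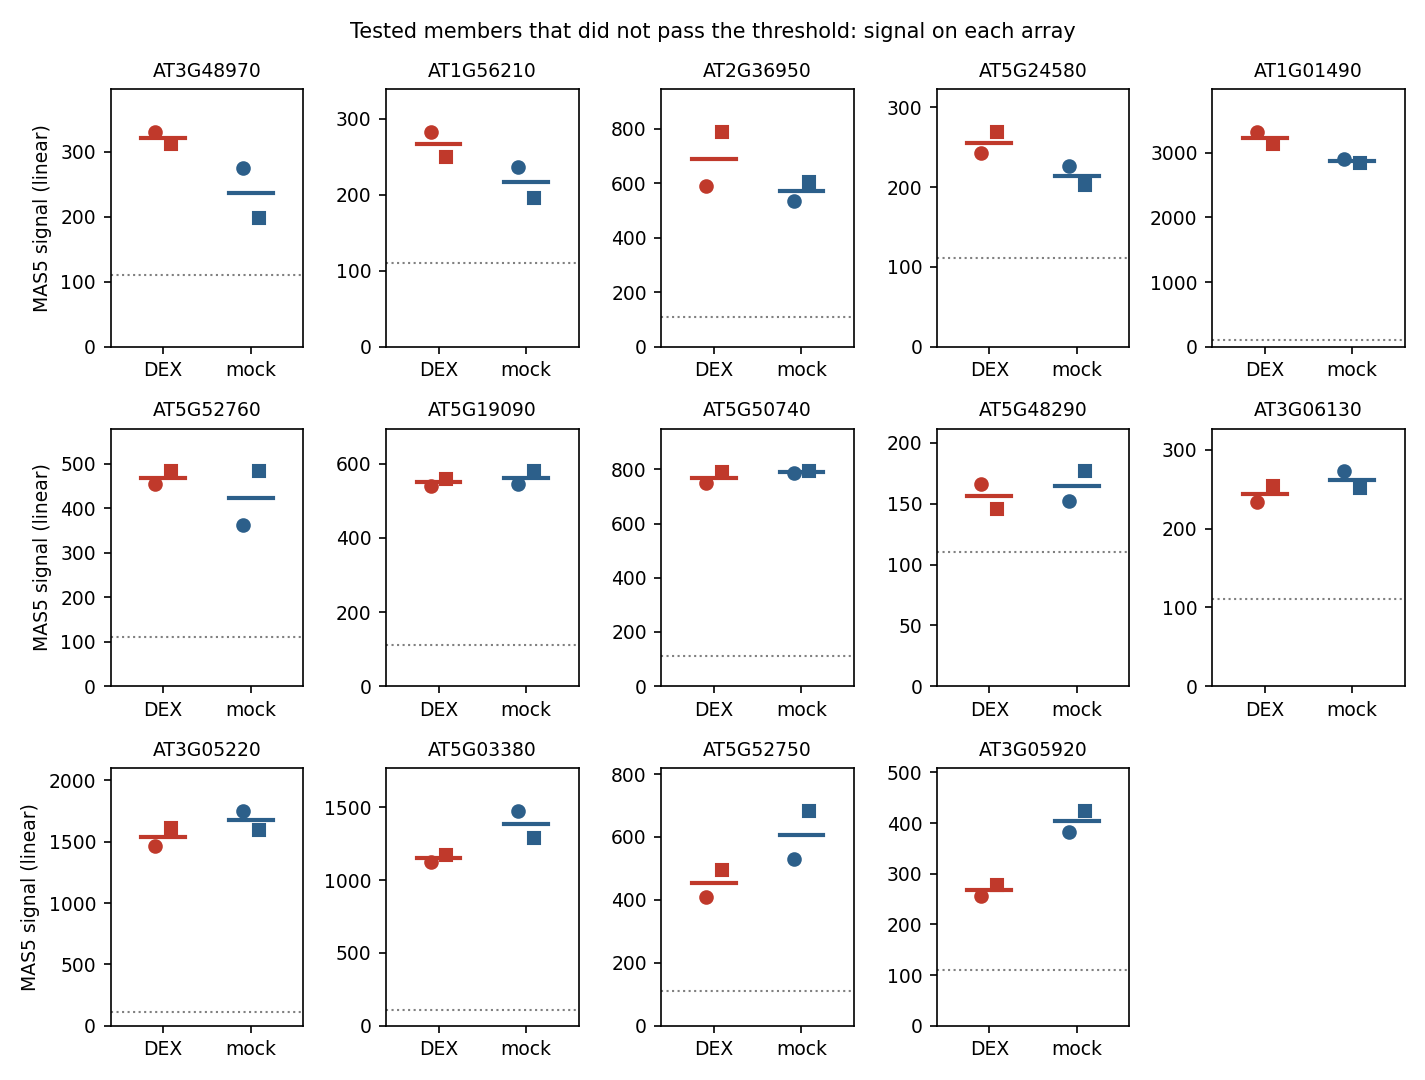
MAS5 signal (vertical axes, linear from 0, scaled per panel) of the 14 tested members that did not pass, on each DEX array (left in each panel) and each mock array (right); circles are replicate 1, squares replicate 2, bars means of 2 arrays, the dotted line the filter level. AT3G05920 shows the widest gap between groups, and most of the other panels show groups that touch or overlap.

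The 6 dim members had signals from 0.592 to 107.0 on single arrays. None passed when limma was run on all 22746 probe sets other than controls (lowest adjusted p = 0.551, lowest unadjusted p = 0.029, both AT1G51090, the single dim member besides AT5G52740 with an unadjusted p under 0.05). AT1G51090 had 19.4 and 27.3 in DEX seedlings and 7.49 and 7.15 in mock seedlings. AT4G05030 had 10.1 and 4.27 in DEX seedlings and 28.4 and 12.0 in mock seedlings, and AT1G23000, the dim member nearest to the filter level, had 49.7 and 81.3 in DEX and 107.0 and 86.4 in mock seedlings. AT2G28090 lay at 2.97 and 16.0 in DEX and 3.17 and 3.23 in mock seedlings, and AT5G37860 stayed under 4 on every array. Replicates of the dim members differed by up to 5.40-fold in DEX and 2.37-fold in mock seedlings, so no fold is read from them.

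The other 18 listed loci had no single-gene probe set in the annotation used and were not analysed here. That annotation did not list 8794 of the probe sets on the array, so whether the array covers these loci is not known here. The 18 loci include the members that carry a common name in RefSeq: HIPP20, HIPP21, HIPP22, HIPP25, HIPP27, FP3, FP6, which is also called HIPP26, and NAKR1, NAKR2 and NAKR3. All 23 measured members carry only their locus code there, so no separate role is given for any of them.

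Genes next to the members on the chromosome were compared in the same fit. Of the 34 protein-coding genes next to the 17 tested members, 18 had a single-gene probe set and 10 were bright enough to test, AT5G52750 and AT5G52760 among them. None of the 10 passed in limma (adjusted p = 0.449 to 0.999), the lowest being AT5G52750. AT3G07600 overlaps its neighbour AT3G07590 in the RefSeq table. That neighbour had 440.9 and 493.5 in DEX seedlings and 377.8 and 417.5 in mock seedlings, a log2 change of 0.23 ± 0.13 (SE; adjusted p = 0.663), opposite in sign to that of AT3G07600. AT5G23760 overlaps AT5G23770, which had no single-gene probe set in the annotation used, and neither gene next to AT5G60800 had such a probe set.

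Other genes of metal handling served for comparison: metal-pumping ATPases, copper chaperones, metallothioneins and chelator enzymes, uptake carriers, storage genes and regulators. Of 63 listed genes only 5 had a single-gene probe set in the annotation used, and 4 could be tested. The pathway as a whole was thus hardly covered. In limma 0 of the 4 rose and 0 fell (adjusted p = 0.714 to 0.977), and 0 had an unadjusted p under 0.05. CCS, the copper chaperone of superoxide dismutase, had 255.2 and 311.7 in DEX and 303.1 and 282.8 in mock seedlings. MT1C, a metallothionein gene, had 12582 and 11292 in DEX and 11892 and 11548 in mock seedlings. The iron deficiency regulator genes BHLH101 and PYE had log2 changes of -0.19 ± 0.12 and -0.10 ± 0.14 (SE). BHLH101 had 545.7 and 511.4 in DEX and 577.9 and 626.8 in mock seedlings, both DEX arrays being lower. PYE had 452.1 and 403.4 in DEX and 431.5 and 487.5 in mock seedlings, with overlapping groups. ZIP9, a zinc carrier gene, was too dim to test, at 33.6 and 54.7 in DEX and 68.0 and 85.2 in mock seedlings.

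With each array left out in turn, all 7 members with an unadjusted p under 0.05 kept their sign. AT5G60800 also kept its call, with log2 changes of 1.37 to 1.66 and adjusted p of 3.79e-05 to 0.0170. The number of members that rose was 1 without DEX replicate 1, 1 without DEX replicate 2, 3 without mock replicate 1 and 2 without mock replicate 2. The number that fell was 0, 0, 3 and 1 in the same order. Calls over the whole table numbered 13 rises and 14 falls without DEX replicate 1, 13 and 12 without DEX replicate 2, 276 and 220 without mock replicate 1, and 164 and 96 without mock replicate 2. In these fits the group with a single array is assumed to vary like the other.

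**Figure D5:**
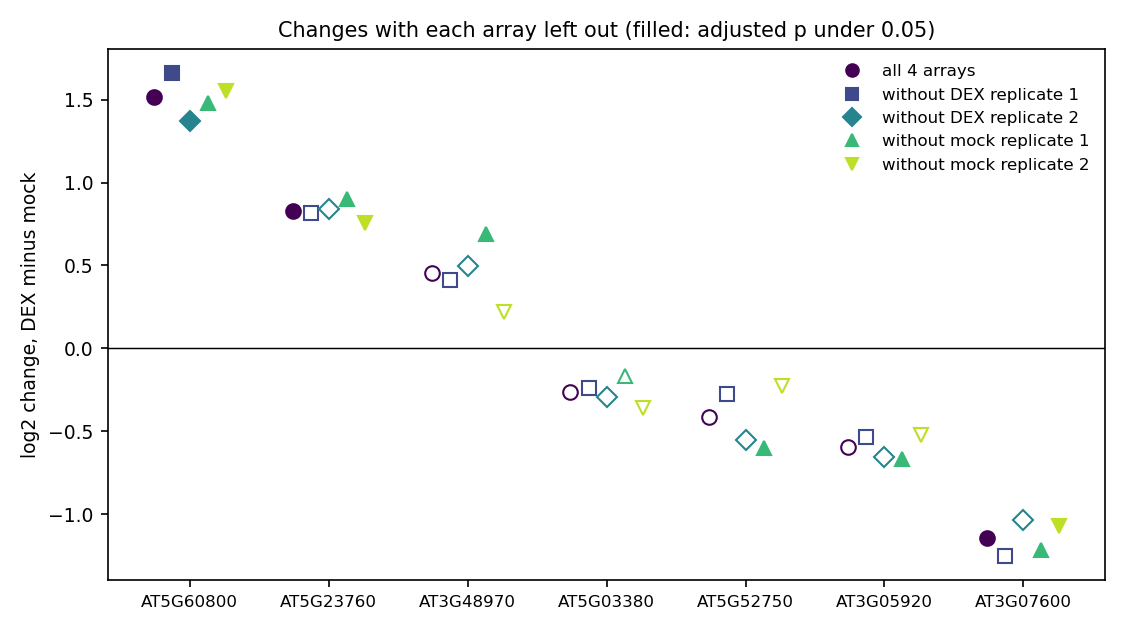
Log2 change of DEX against mock (vertical axis, DEX minus mock) of the 7 members with an unadjusted p under 0.05, with all 4 arrays and with each array left out; filled symbols have an adjusted p under 0.05, open ones do not. AT5G60800 is filled throughout, AT5G23760 and AT3G07600 are open without either DEX array, and AT3G48970, AT5G52750 and AT3G05920 are filled only without mock replicate 1.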

How the data were processed

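Biotin-labelled target from seedling RNA was hybridised to Affymetrix arrays of 1 colour, 2 per group, grouped by the sample titles. The authors deposited MAS5 intensities (the tool is named in the submitters' processing notes; its version and settings are not given in the sources used here), which are linear. Each array had a mean of 500.0 after trimming 2% at each end, so a change in total RNA cannot be seen.

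The 64 control probe sets were left out, log2 values were taken with no pseudocount, and the 9098 dimmest were left out. Groups were compared with limma 3.58.1 (R 4.3.3), variances following the mean, two-sided, over 13648 probe sets. Each test had 9.74 degrees of freedom, 2 from the arrays. The fit was also run on data simulated from its own variance model, which cannot show how it behaves on real MAS5 noise. Probe sets were named through the array annotation and RefSeq TAIR10.1 identifiers (13436 matched). Coordinates are left out because the array's genome build is not given in the sources used here. Protein and promoter sequences were not used here.

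The members, lists and tests were chosen with earlier results of these data known. Named were members past the threshold or with an unadjusted p under 0.05, the 5 with the highest signal, and up to 3 genes of each metal list; the planned structural groups were not formed without sequences. Alternatives were a pseudocount of 20, the filter dropped or set at the 60th percentile, median centring, quantile normalization, other variance models, the replicate number as a block, each array left out and the mean over probe sets of a gene.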

Additional observations from a re-analysis of the deposited data

How the results depend on the processing

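Of 214 changes of single members computed under 13 alternatives, 199 kept their sign and their side of the threshold. AT5G60800 passed in all 12 alternatives that tested it; at the 60th percentile neither it nor AT3G07600 was tested. The count of members that rose was 1 without the filter and 1 with the filter at the 60th percentile, and 1 to 3 with an array left out. The count that fell was 0 without the filter and 0 at the 60th percentile, and 0 to 3 with an array left out. Over the whole table, 15 rose and 10 fell without the filter, 20 and 23 at the 60th percentile, and 13 to 276 rose and 12 to 220 fell with an array left out. With the replicate number as a block, 98 rose and 87 fell over the table, while 2 members rose and 1 fell, as without it. The labels do not say that the number marks a shared batch; the differences of replicate 1 from 2 correlated at r = 0.109 between groups across probe sets. Signs turned in 4 members that had not passed: with an array left out, AT5G19090 ran from -0.075 to 0.015, AT5G48290 from -0.18 to 0.034, AT5G50740 from -0.076 to 0.0013 and AT5G52760 from -0.042 to 0.37, and AT5G50740 stood at 0.0045 with the mean over probe sets. The members' median stayed between -0.04 and 0.03. The causes were not tested. The number of arrays limits the precision, and signals near or under the filter level are noisy.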
